A study of Mus musculus with 24 samples.

Results

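The change of microRNAs from 1 to 9 months of age was followed in the cerebral cortex of wild-type (WT) C57BL/6 mice. The 9-month libraries were set against the 1-month libraries. The comparison used 6 of the 24 small RNA libraries of the study, chosen by their labels: 3 WT mice of 9 months and 3 WT mice of 1 month, with 1 library per mouse. The other groups were WT mice of 3 and 6 months and mice of the same strain with the APP/PS1 transgenes, used to model Alzheimer disease, of 1, 3, 6 and 9 months, with 3 mice each. The APP/PS1 mice of 9 and of 1 month served to ask whether the change was particular to WT. Each age group held 2 female and 1 male mouse. The sources used here give neither the sex behind each library nor the promoter of the transgenes. All 1927 listed names were examined, and 433 had enough counts to be tested, of which 9 were predicted miRNAs.

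A miRNA is a short RNA cut from a hairpin precursor. Either arm of the hairpin (5p or 3p) can be loaded into an Argonaute protein, and bases 2 to 8 of the loaded strand, the seed, pair with target transcripts and lower their stability and translation. Values after ± in fold changes are standard errors. Cortical miRNAs are known to change strongly while neurons mature and glia differentiate after birth. The miR-29 family, which targets transcripts of collagens and of DNA methyltransferases, is known to accumulate in maturing neurons. The imprinted Dlk1-Dio3 locus carries a large miRNA array expressed from the maternal chromosome and most active in developing brain.

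The sequences below are those of the miRNAs on which the results turn, from RefSeq (GRCm38.p6), with the seed in capitals. Those higher at 9 months come first, with one seed common to the miR-29 3p arms and another to both miR-26 names.
miR-29b-3p: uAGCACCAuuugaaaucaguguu
miR-29c-3p: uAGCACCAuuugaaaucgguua
miR-29a-3p: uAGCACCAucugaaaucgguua
miR-26a-5p: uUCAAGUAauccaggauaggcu
miR-26b-5p: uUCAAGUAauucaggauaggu
miR-30a-5p: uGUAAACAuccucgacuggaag
miR-101b-3p: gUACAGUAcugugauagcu
miR-338-3p: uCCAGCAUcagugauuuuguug
The next set was lower at 9 months and comes from the transcript Mir17hg, with a seed shared by miR-17-5p and miR-20a-5p and another by miR-19a-3p and miR-19b-3p.
miR-17-5p: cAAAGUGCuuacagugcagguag
miR-20a-5p: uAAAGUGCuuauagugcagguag
miR-19a-3p: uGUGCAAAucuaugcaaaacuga
miR-19b-3p: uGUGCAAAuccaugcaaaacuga
miR-18a-5p: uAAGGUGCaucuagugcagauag
The last set comes from the Dlk1-Dio3 locus, where miR-376b-5p was higher and the others were lower, and miR-379-5p and miR-1193-5p share a seed.
miR-412-5p: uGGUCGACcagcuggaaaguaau
miR-409-5p: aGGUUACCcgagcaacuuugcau
miR-1197-3p: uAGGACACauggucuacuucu
miR-323-3p: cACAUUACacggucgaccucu
miR-494-3p: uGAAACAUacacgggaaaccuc
miR-379-5p: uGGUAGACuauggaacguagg
miR-1193-5p: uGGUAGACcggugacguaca
miR-376b-5p: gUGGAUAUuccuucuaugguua
By position from the 5′ end, miR-29a-3p and miR-29c-3p differ by C10U alone and miR-19a-3p and miR-19b-3p by U11C alone. How reads that match several names were counted is not given in the sources used here, so values of such close names may not be independent.

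Library totals lay between 4036855 and 6604335 counts at 9 months and between 3041234 and 4769879 counts at 1 month. Levels are given as CPM, counts normalised to the same library size, on sizes scaled by TMM, which corrects for differences in composition. Levels of different names compare counts and not molecules. The 6 libraries were alike, with Pearson's r over the 433 names between 0.994 and 0.995 within the 9-month group, between 0.992 and 0.994 within the 1-month group, and between 0.986 and 0.991 across the groups. The tissue, labelled as brain, carried the brain miRNAs miR-124-3p (176242 ± 9943 CPM at 9 months and 143020 ± 7937 CPM at 1 month, SD, n = 3 each) and miR-9-5p (65991 ± 4754 CPM at 9 months and 62894 ± 6766 CPM at 1 month), and 13 of 18 names of an epithelial list had 0 counts in all 6 libraries. Markers of other tissue set 2 libraries of 1 month apart, and markers of vessels set 9-month replicate 3 apart. The choroid plexus list summed to between 248 and 362 CPM in 5 libraries and to 534.6 CPM in 1-month replicate 2. The Hox cluster list, of hindbrain and spinal cord, summed to between 175 and 293 CPM in 5 libraries and to 494 CPM in 1-month replicate 3. The endothelium and vascular smooth muscle list summed to between 8715 and 10033 CPM in 5 libraries and to 13182 CPM in 9-month replicate 3. Omitting 1-month replicate 2 gave 20 higher and 39 lower names, and omitting 1-month replicate 3 gave 14 higher and 38 lower, in place of the 31 and 45 described next. In bulk tissue, fewer cells of a type and less RNA per cell cannot be told apart.

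Between 1 and 9 months, 76 of the 433 tested names (17.6%) changed in edgeR's quasi-likelihood test at an adjusted p of 0.05, 31 higher (7.16%) and 45 lower (10.4%) at 9 months. In all 76 the 3 libraries of one age lay wholly above those of the other. Of all tested names 39.3% were separated in this way. The changes were modest in size, with the strongest at a log2 fold change of 1.65 for miR-338-3p and -2.59 for miR-412-5p. The split between higher and lower depended on the scaling. The median log2 fold change over all tested names was 0.01, against -0.19 when counts were scaled by library totals alone, and 11 names were then called higher and 79 lower. All 45 lower calls and 11 of the 31 higher ones were kept there, so changes are given relative to the bulk of the tested names. When each of the 6 libraries was omitted in turn, 39 of the 76 calls passed every time, 13 higher and 26 lower. The count of higher calls dropped to 14 without 1-month replicate 3, 18 without 9-month replicate 2, 19 without 9-month replicate 3 and 20 without 1-month replicate 2. No call turned its direction in any fit.

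**Figure D1:**
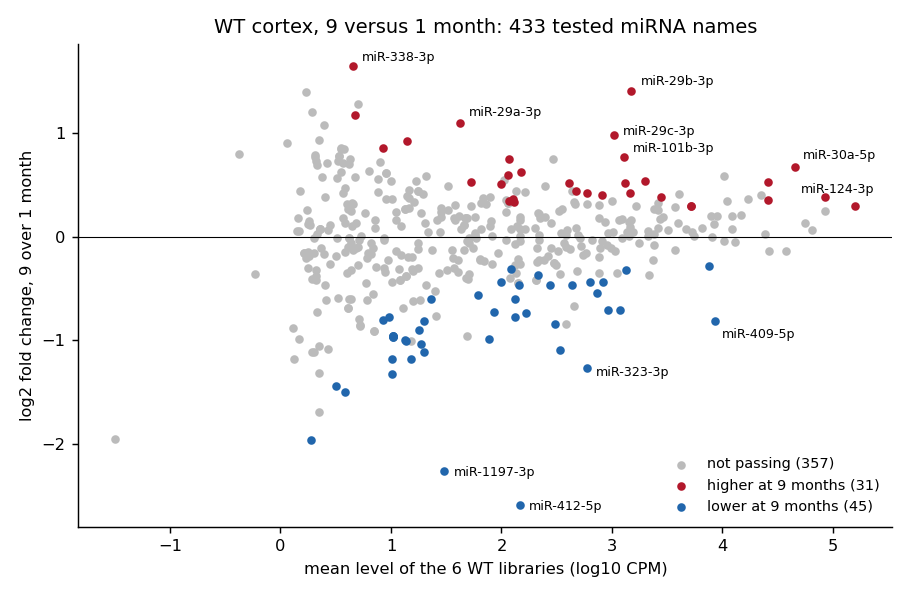
Each point is 1 of the 433 tested miRNA names in WT cortex, with the mean level of the 6 libraries (log10 CPM) on the x axis and the log2 fold change of 9 over 1 month on the y axis. The 31 names higher at 9 months (red) reach 1.65, and the 45 lower ones (blue) reach -2.59.

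The clearest rise was that of the miR-29 family. miR-29b-3p had 2279, 2236 and 2028 CPM in the 9-month libraries, against 762, 784 and 913 CPM in the 1-month libraries (log2 fold change 1.41 ± 0.10, adjusted p = 2.92e-09). miR-29c-3p had 1406, 1428 and 1320 CPM in the 9-month libraries, against 657, 694 and 744 CPM in the 1-month libraries (log2 fold change 0.99 ± 0.09, adjusted p = 4.47e-08). miR-29a-3p, the least counted of the 3, had 61.7, 55.5 and 56.6 CPM in the 9-month libraries, against 25.2, 28.5 and 27.3 CPM in the 1-month libraries (log2 fold change 1.10 ± 0.11, adjusted p = 2.92e-07). For each of these names all 9-month libraries lay well above all 1-month libraries, with folds between the mean levels of 2.66 for miR-29b-3p, 1.98 for miR-29c-3p and 2.14 for miR-29a-3p. The levels were already close to those of 9 months at the ages between, with miR-29b-3p at 1817 CPM at 3 months and 2126 CPM at 6 months and miR-29c-3p at 1273 CPM at 3 months and 1349 CPM at 6 months. The family is made from 2 loci (GRCm38). Mir29a lies at chr6:31062660-31062747 beside Mir29b-1 at chr6:31063023-31063093. Mir29b-2 lies at chr1:195037040-195037120 beside Mir29c at chr1:195037547-195037634, both in exons of the noncoding transcript A330023F24Rik and opposite exons of Cd46. The passenger arms of the second locus moved far less. miR-29c-5p had 134, 137 and 121 CPM in the 9-month libraries, against 108, 87.98 and 112 CPM in the 1-month libraries (log2 fold change 0.35 ± 0.12, adjusted p = 0.0408). Its call was lost in 5 of 6 omissions of a library (highest adjusted p = 0.272, without 1-month replicate 2) and with library totals alone (adjusted p = 0.4). In all, it was kept in 3 of 9 fits with other processing. miR-29b-2-5p, at 30.999 ± 1.75 CPM at 9 months and 26.2 ± 4.61 CPM at 1 month, did not pass (log2 fold change 0.24, adjusted p = 0.29). In all, 4 of the 5 tested members rose and 0 fell (7.16% of all tested names rose), with a median log2 fold change of 0.99 against 0.01 over all tested names.

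Other abundant miRNAs rose by less. miR-101b-3p, which targets transcripts of the chromatin enzyme Ezh2, had 1556, 1543 and 1747 CPM in the 9-month libraries, against 949, 921 and 979 CPM in the 1-month libraries (log2 fold change 0.77 ± 0.11, adjusted p = 1.82e-05), with 1145 CPM at 3 months and 1354 CPM at 6 months. Its precursor lies in an intron of Rcl1 (chr19:29135279-29135375). miR-30a-5p, described as a regulator of Bdnf, had 50816, 56294 and 60782 CPM in the 9-month libraries, against 34416, 31213 and 39299 CPM in the 1-month libraries (log2 fold change 0.68 ± 0.15, adjusted p = 0.0031), and its 3p arm had 825, 869 and 1105 CPM at 9 months and 671, 721 and 725 CPM at 1 month (log2 fold change 0.40 ± 0.13, adjusted p = 0.0406). The call of miR-30a-5p survived every omission of a library, while that of miR-30a-3p was lost in 5 of 6 (highest adjusted p = 0.308, without 9-month replicate 3). miR-30b-5p had a log2 fold change of 0.53 (adjusted p = 0.0118). In all, 3 of the 8 tested members of the miR-30 family rose (37.5%, against 7.16% of all tested names) and 0 fell. All 8 had log2 fold changes above 0, with a median of 0.43 against 0.01 over all tested names, and 1 was called with library totals alone and 1 without 9-month replicate 2.

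The miR-26 names are encoded in the genes of small phosphatases that act with the repressor REST to hold down neuronal genes. Mir26a-1 lies in an intron of Ctdspl (chr9:119031796-119031885), Mir26a-2 within an exon of Ctdsp2 (chr10:126995530-126995613) and Mir26b in an intron of Ctdsp1 (chr1:74394310-74394394). miR-26b-5p had 2541, 2560 and 2043 CPM in the 9-month libraries, against 1573, 1763 and 1567 CPM in the 1-month libraries (log2 fold change 0.54 ± 0.13, adjusted p = 0.00538). miR-26a-5p had 101105, 103937 and 81706 CPM in the 9-month libraries, against 68861, 77671 and 73075 CPM in the 1-month libraries (log2 fold change 0.38 ± 0.11, adjusted p = 0.0157). The groups did not overlap for either, but 9-month replicate 3 was the lowest of its group in both, and the call of miR-26a-5p was lost in 3 of 6 omissions (highest adjusted p = 0.17, without 9-month replicate 2) and with library totals alone (adjusted p = 0.145). miR-100-5p, of the conserved miR-100 and let-7 cluster, had 30548, 29830 and 30431 CPM in the 9-month libraries, against 20760, 20951 and 21354 CPM in the 1-month libraries (log2 fold change 0.53 ± 0.09, adjusted p = 0.0004). The ages between held 24263 CPM at 3 months and 16159 CPM at 6 months. It was the only one of 11 tested names of the miR-99 and miR-125 families to pass (9.09%, near the 7.16% of all tested names). miR-99a-5p, with 91400 ± 8689 CPM at 9 months and 77030 ± 4057 CPM at 1 month, and miR-125b-5p, with 57990 ± 4649 CPM at 9 months and 52818 ± 3964 CPM at 1 month, had log2 fold changes of 0.25 (adjusted p = 0.146) for miR-99a-5p and 0.13 (adjusted p = 0.601) for miR-125b-5p.

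**Figure D2:**
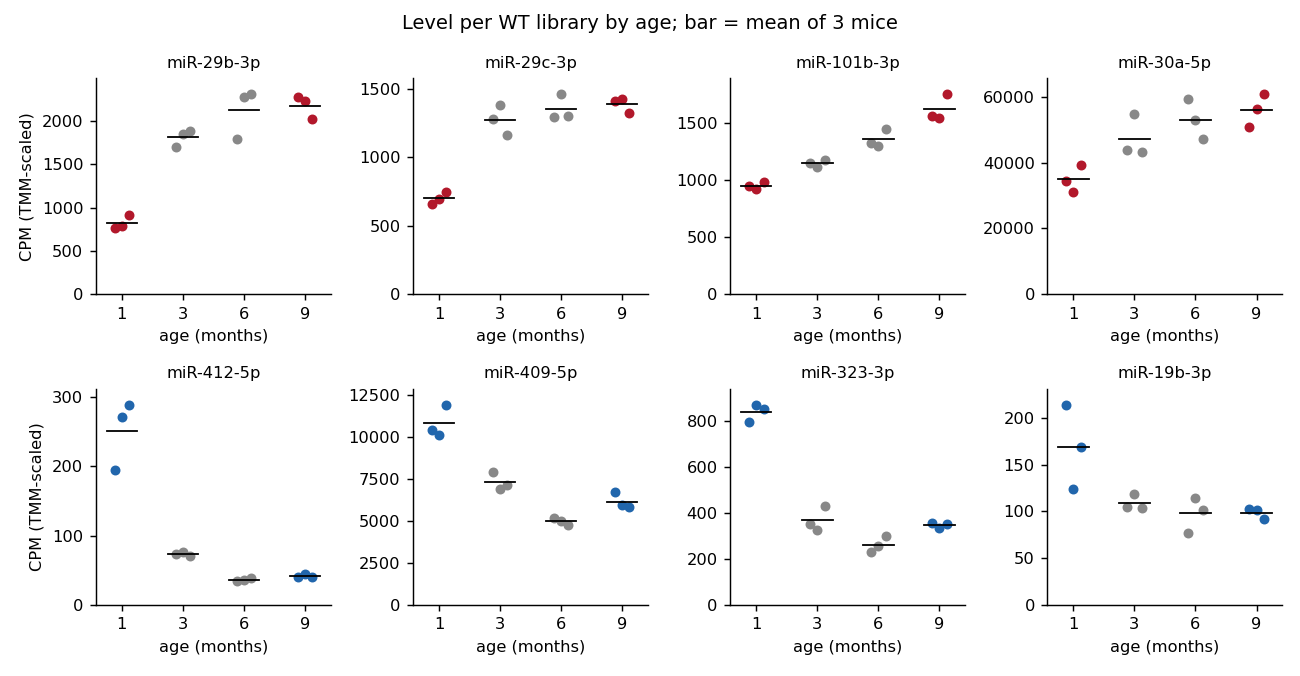
Level (CPM on TMM-scaled library sizes) of 8 miRNAs in the 12 WT libraries by age in months. Points are single mice, bars are means of 3, coloured ages are those compared and grey ages are shown for the course. miR-29b-3p and miR-29c-3p stand near their 9-month level at 3 months, and miR-412-5p, miR-323-3p and miR-19b-3p stand low from 3 months on.

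Further names with higher levels at 9 months were miR-598-3p (log2 fold change 0.52, adjusted p = 0.00262), miR-203-3p, best known from skin (0.63, adjusted p = 0.00356), miR-152-3p, which targets Dnmt1 and lies in an intron of Copz2 (0.43, adjusted p = 0.011), and let-7f-2-3p from an intron of Huwe1 (0.60, adjusted p = 0.011). The call of miR-598-3p was lost with library totals alone (adjusted p = 0.0915), as were those of miR-152-3p (adjusted p = 0.178) and let-7f-2-3p (adjusted p = 0.0755). The last 2 calls each passed in 4 of 6 omissions of a library. Their highest adjusted p came without 9-month replicate 3 (0.195 for miR-152-3p and 0.117 for let-7f-2-3p). The call of miR-152-3p was also lost without a filter (adjusted p = 0.11). let-7a-5p of the let-7 family, which times developmental transitions, had 5745 ± 524 CPM at 9 months and 4663 ± 98.9 CPM at 1 month (log2 fold change 0.30 ± 0.09, adjusted p = 0.0283), and 2 of 19 tested let-7 names rose (10.5%, near the 7.16% of all tested names) and 0 fell. Both let-7 calls were lost with library totals alone, and both without 1-month replicate 3.

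Among miRNAs that mark cell types, miR-338-3p had the highest log2 fold change. It promotes the differentiation of oligodendrocytes, the myelinating cells, and its precursor lies in an intron of Aatk (chr11:120014765-120014862). It was counted rarely, with 110 counts over the 9-month libraries and 28 over the 1-month libraries, or 5.80, 9.04 and 5.87 CPM at 9 months and 2.31, 1.25 and 2.89 CPM at 1 month (log2 fold change 1.65 ± 0.30, adjusted p = 0.000727). Levels at the ages between were 3.76 CPM at 3 months and 6.12 CPM at 6 months, and the call survived every omission of a library, but the name was too rare for the filter at a mean of 10 CPM. The other 6 oligodendrocyte names were too rare to be tested. Among them, the 5p arm miR-338-5p had 10 counts over the 9-month libraries and 12 over the 1-month libraries, and miR-219a-5p had 3 at 9 months and 0 at 1 month.

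Of 23 tested members of the neuron-enriched list 3 rose (13.04%, against 7.16% of all tested names) and 0 fell. The median log2 fold change was 0.23, against 0.01 over all. It was also 0.23 in the let-7 list and 0.23 in the list of the miR-99 and miR-125 families. miR-124-3p had 184777, 178625 and 165325 CPM in the 9-month libraries, against 140047, 136999 and 152014 CPM in the 1-month libraries (log2 fold change 0.30 ± 0.10, adjusted p = 0.0364). The groups did not overlap, but the call did not survive any omission of a library (highest adjusted p = 0.202, without 9-month replicate 2). It was also lost with library totals alone (adjusted p = 0.435) and with a replicate block (adjusted p = 0.0532). The same held without a filter (adjusted p = 0.167) and with the stricter filter (adjusted p = 0.116). miR-218-5p, from introns of the axon guidance genes Slit2 and Slit3, had 3132 ± 200.5 CPM at 9 months and 2393 ± 36.2 CPM at 1 month (log2 fold change 0.39 ± 0.10, adjusted p = 0.013), and miR-383-5p a log2 fold change of 0.86 (adjusted p = 0.0189). Both calls were lost with library totals alone, where the list had 0 higher and 2 lower members, and without 9-month replicate 2 the list had 0 higher. miR-9-5p, with a log2 fold change of 0.07 (adjusted p = 0.791), did not pass. Of 10 tested names of a list regulated by neuronal activity, 1 rose, a share near the 7.16% of all tested names. It was miR-191-5p (log2 fold change 0.35 ± 0.11, adjusted p = 0.021), and that call was lost in 5 of 6 omissions (highest adjusted p = 0.25, without 9-month replicate 2). miR-132-3p, the best known member of that list, did not pass (log2 fold change 0.00, adjusted p = 0.991).

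Of the striated muscle list, 2 of 5 tested members rose, against 7.16% of all tested names. miR-133a-3p had 123, 155 and 164 CPM in the 9-month libraries, against 91.4, 80.5 and 91.3 CPM in the 1-month libraries (log2 fold change 0.75 ± 0.18, adjusted p = 0.00605), and miR-133b-3p had 18.97, 18.3 and 17.9 CPM at 9 months and 10.4, 6.999 and 11.4 CPM at 1 month (log2 fold change 0.93 ± 0.23, adjusted p = 0.00711). Both calls survived every omission of a library. miR-1a-3p (log2 fold change 0.75, adjusted p = 0.0812), miR-206-3p (0.58, adjusted p = 0.579) and miR-499-5p (0.49, adjusted p = 0.154) did not pass. The list, 18 names of which 9 had 0 counts in all 6 libraries, summed to between 483 and 628 CPM at 9 months and between 285 and 414 CPM at 1 month, so it was higher in every 9-month library, and whether other tissue contributed to this was not tested.

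Lists of blood and vessel cells gave few calls. Of 9 tested immune and microglial names 1 rose (11.1%, near the 7.16% of all tested names). It was miR-146b-5p, which damps signalling through NF-kappa-B (log2 fold change 0.30 ± 0.09, adjusted p = 0.0267), and its call was lost in 5 of 6 omissions (highest adjusted p = 0.129, without 9-month replicate 2). miR-155-5p (log2 fold change 0.85, adjusted p = 0.15), miR-146a-5p (-0.19, adjusted p = 0.487), miR-142a-5p (-0.18, adjusted p = 0.36) and, of neutrophils, miR-223-3p (-0.01, adjusted p = 0.991) did not pass. The 7 tested erythrocyte names, which are 5 distinct measurements since miR-486a and miR-486b have identical counts in both arms, all had log2 fold changes below 0, and 0 passed. With identical names taken once they summed to between 803 and 1020.1 CPM at 9 months and between 1018 and 1528 CPM at 1 month. In the endothelium and vascular smooth muscle (4 tested), choroid plexus (4), pancreas and pituitary (7), Hox cluster (2) and liver (1) lists 0 passed, as was so of the miR-15 and miR-195 (8), miR-34 and miR-449 (3), miR-181 (5), miR-130 and miR-301 (2), and miR-199 and miR-214 (5) lists. The epithelial list and the X-linked miR-322 and miR-503 cluster had 0 tested members. Of 10 names reported to change with brain age 4 rose and 0 fell (7.16% of all tested names rose), namely the 3p arms of miR-29 and miR-101b-3p, while miR-34a-5p (log2 fold change 0.43, adjusted p = 0.479) and miR-22-3p (0.04, adjusted p = 0.883) did not pass. That list was drawn up from reports on brain ageing. Like the other lists, it was chosen with earlier results of these data known, and is not independent evidence of a direction.

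**Figure D3:**
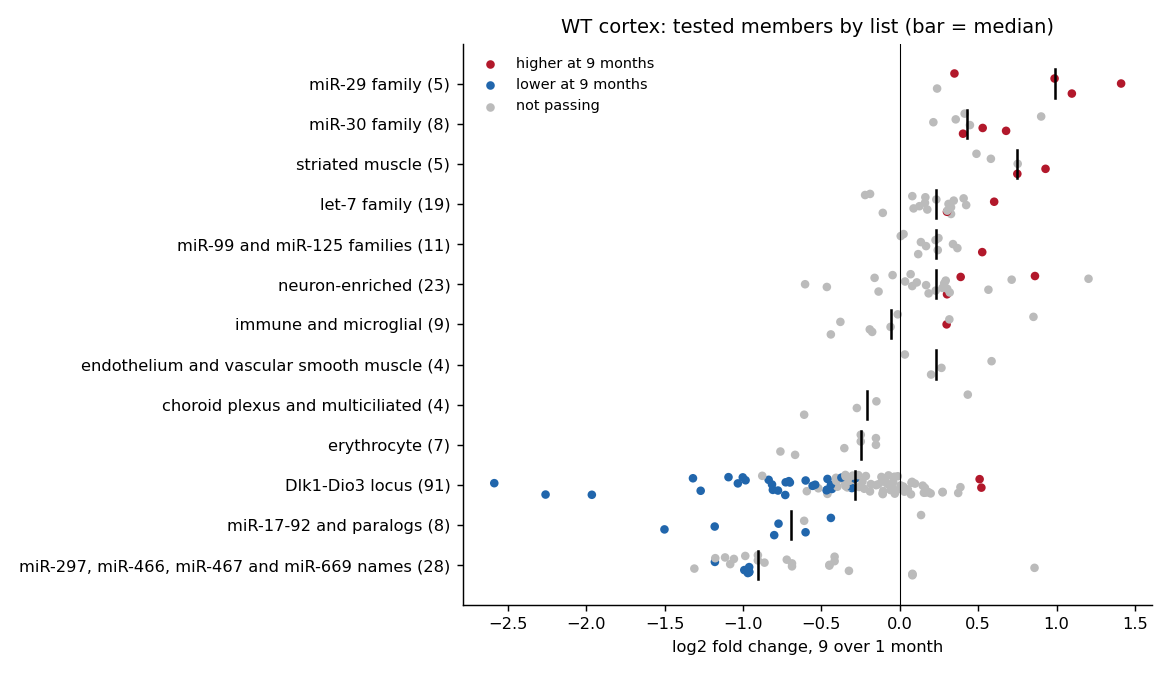
Log2 fold change of 9 over 1 month in WT cortex for the tested members of 13 lists, the number of members in parentheses and the median as a black bar. The miR-29 family has its median at 0.99, and the miR-17-92 and Dlk1-Dio3 lists have theirs at -0.69 and -0.29, against 0.01 over all tested names.

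Most of what fell came from the Dlk1-Dio3 locus. Of its 91 tested names 29 fell and 2 rose, against 45 (10.4%) lower and 31 (7.16%) higher of all tested names, and the median log2 fold change was -0.29. Some of these names are both arms of 1 hairpin. Of the 52 precursors with a position in RefSeq, 20 had a lower call and 2 a higher one. The summed level of the locus was lower in every 9-month library. It lay between 73560 and 78831 CPM at 9 months and between 80072 and 92542 CPM at 1 month. On this scale all tested names together summed to between 993554 and 1063459 CPM at 9 months and between 879612 and 918338 CPM at 1 month. The sum of the locus therefore depends on the scaling. With library totals alone, the median log2 fold change of the locus was -0.49. The 3 most counted names of the locus, miR-434-5p (log2 fold change 0.08, adjusted p = 0.604), miR-434-3p (-0.04, adjusted p = 0.822) and miR-136-3p (0.20, adjusted p = 0.24), did not pass. The steepest fall was that of miR-412-5p, with 40.3, 45.003 and 40.5 CPM in the 9-month libraries, against 196, 271 and 289 CPM in the 1-month libraries (log2 fold change -2.59 ± 0.20, adjusted p = 3.48e-09). All 9-month libraries lay far below all 1-month libraries, and the ages between held 73.2 CPM at 3 months and 36.5 CPM at 6 months. Its 3p arm had 11.6, 14.02 and 11.6 CPM at 9 months and 24.01, 25.99 and 26.2 CPM at 1 month (log2 fold change -1.03 ± 0.20, adjusted p = 0.00117). miR-409-5p, the most abundant name that fell, had 6701, 5919 and 5801 CPM in the 9-month libraries, against 10397, 10115 and 11889 CPM in the 1-month libraries (log2 fold change -0.81 ± 0.10, adjusted p = 3.13e-06), and miR-409-3p a log2 fold change of -0.54 (adjusted p = 0.0102). The precursors Mir409 (chr12:109743158-109743236) and Mir412 (chr12:109743289-109743368) adjoin each other within the noncoding transcript Mirg, in an intron and an exon.

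Strong falls also lay further upstream. miR-1197-3p had 11.9, 7.93 and 11.9 CPM in the 9-month libraries, against 41.7, 47.99 and 61.6 CPM in the 1-month libraries (log2 fold change -2.26 ± 0.29, adjusted p = 1.06e-05), and its neighbour miR-323-3p had 357, 337 and 353 CPM in the 9-month libraries, against 799, 871 and 854 CPM in the 1-month libraries (log2 fold change -1.27 ± 0.17, adjusted p = 1.5e-05). Both stood at or near the 9-month level at 3 months, with 9.37 CPM at 3 months and 8.25 CPM at 6 months for miR-1197-3p and 369.7 CPM at 3 months and 262 CPM at 6 months for miR-323-3p. miR-494-3p had 51.1, 48.5 and 55.2 CPM in the 9-month libraries, against 98.6, 99.98 and 108 CPM in the 1-month libraries (log2 fold change -0.98 ± 0.12, adjusted p = 6.7e-06), and miR-1193-3p, from a precursor nearby, had 133, 121 and 126 CPM at 9 months and 189, 224 and 216 CPM at 1 month (log2 fold change -0.73 ± 0.12, adjusted p = 0.000288). The other arm, miR-1193-5p, had 0.527, 1.11 and 0.602 CPM at 9 months and 3.47, 2.999 and 2.70 CPM at 1 month (log2 fold change -1.96 ± 0.50, adjusted p = 0.0101). miR-543-5p had 8.17, 5.72 and 3.91 CPM at 9 months and 10.99, 16.5 and 15.8 CPM at 1 month (log2 fold change -1.32 ± 0.26, adjusted p = 0.00127), while miR-543-3p, the arm with more counts, did not pass (log2 fold change -0.09, adjusted p = 0.631). miR-329-3p (log2 fold change -0.47 ± 0.10, adjusted p = 0.00262) and miR-496a-3p (log2 fold change -0.84 ± 0.11, adjusted p = 1.5e-05) fell too. At the proximal end miR-433-5p, which lies opposite an exon of Rtl1, was lower (log2 fold change -0.73 ± 0.13, adjusted p = 0.000531), as was miR-337-5p (log2 fold change -0.46 ± 0.09, adjusted p = 0.0017). The calls named here survived every omission of a library and scaling by library totals alone.

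Next to miR-409-5p, the most counted lower names were miR-541-5p, miR-379-5p and miR-487b-3p. miR-541-5p had 6813, 6561 and 7176 CPM in the 9-month libraries, against 8057, 8047 and 8942 CPM in the 1-month libraries (log2 fold change -0.29 ± 0.08, adjusted p = 0.0154), miR-379-5p had 1196 ± 64.5 CPM at 9 months and 1491 ± 17.8 CPM at 1 month (log2 fold change -0.32 ± 0.08, adjusted p = 0.00625) and miR-487b-3p had 907 ± 83.01 CPM at 9 months and 1481 ± 94.6 CPM at 1 month (log2 fold change -0.71 ± 0.17, adjusted p = 0.00596). The calls of miR-541-5p and miR-379-5p were lost when rare names were not filtered out (adjusted p = 0.126 for miR-541-5p and 0.13 for miR-379-5p). Against the trend, miR-376b-5p had 474, 487 and 471 CPM in the 9-month libraries, against 326, 343 and 329 CPM in the 1-month libraries (log2 fold change 0.52 ± 0.10, adjusted p = 0.00148) and miR-540-5p had 117 ± 9.15 CPM at 9 months and 81.8 ± 7.88 CPM at 1 month (log2 fold change 0.51 ± 0.13, adjusted p = 0.0115). Both higher calls were lost with library totals alone (adjusted p = 0.0525 for miR-376b-5p and 0.197 for miR-540-5p), where 36 names of the locus were lower and 0 higher. RefSeq gave positions for 88 of the 91 names, in precursors between positions 109563692 and 109747960 of chromosome 12 (GRCm38). Of these 88, 31.8% fell, against 4.93% of the other 345 tested names. The 345 still include the names of the locus without a position, among them miR-487b-3p, which fell.

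**Figure D4:**
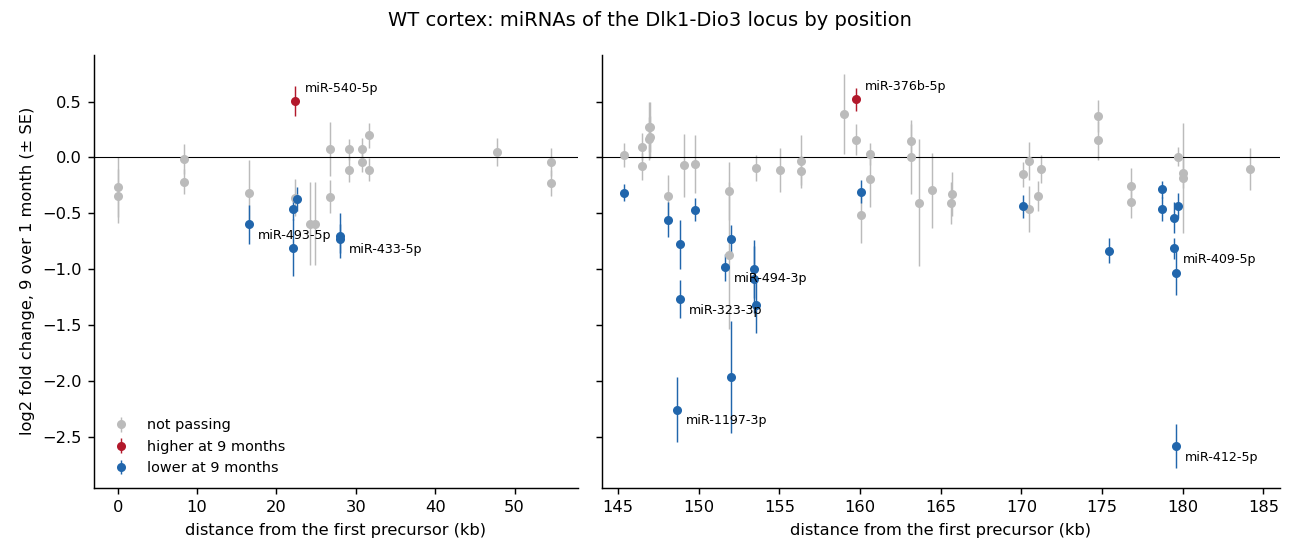
Log2 fold change of 9 over 1 month in WT cortex, with its SE, for the 88 positioned names of the Dlk1-Dio3 locus by distance in kb from the first precursor. The panels leave out the stretch of 90.8 kb without tested names. Lower names (blue) lie in both parts, miR-1197-3p at -2.26 and miR-412-5p at -2.59 are the lowest, and the higher ones are miR-540-5p and miR-376b-5p.

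The miR-17-92 cluster, which drives proliferation of progenitor cells, fell in most of its tested members. Of 8 tested names of this cluster and its paralogs 6 fell (75.0%, against 10.4% of all tested names) and 0 rose, with a median log2 fold change of -0.69 against 0.01 over all. miR-19a-3p had 11.3, 9.22 and 7.67 CPM in the 9-month libraries, against 30.1, 14.997 and 18.7 CPM in the 1-month libraries (log2 fold change -1.18 ± 0.24, adjusted p = 0.00148), and miR-19b-3p had 103, 102 and 91.6 CPM in the 9-month libraries, against 214, 124 and 168 CPM in the 1-month libraries (log2 fold change -0.77 ± 0.16, adjusted p = 0.00175). miR-18a-5p, with 32 counts over the 9-month libraries and 73 over the 1-month libraries, had 1.58, 2.58 and 1.81 CPM at 9 months and 5.50, 5.50 and 6.16 CPM at 1 month (log2 fold change -1.50 ± 0.30, adjusted p = 0.00156). miR-17-5p had 107, 109 and 98.6 CPM at 9 months and 184, 132 and 161 CPM at 1 month (log2 fold change -0.60 ± 0.15, adjusted p = 0.0069), miR-17-3p a log2 fold change of -0.80 (adjusted p = 0.0174) and miR-20a-5p of -0.44 (adjusted p = 0.021). For miR-17-5p, miR-19a-3p, miR-19b-3p and miR-20a-5p, 1-month replicate 1 was the highest library. Without it 4 of the 6 calls were kept, and those of miR-20a-5p (adjusted p = 0.127) and miR-17-3p (adjusted p = 0.115) were lost. miR-92a-3p, the most counted member, did not pass (log2 fold change 0.14, adjusted p = 0.564), nor did miR-20a-3p (-0.61, adjusted p = 0.206). Mir17 (chr14:115043671-115043754), Mir18 (chr14:115043851-115043946), Mir19a (chr14:115044000-115044081), Mir20a (chr14:115044157-115044263) and Mir19b-1 (chr14:115044305-115044391) lie in exons of Mir17hg. miR-19b-3p is also made from Mir19b-2 on chromosome X.

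Of 28 tested names of the rodent miR-297, miR-466, miR-467 and miR-669 families, many of which come from an intron of Sfmbt2, 7 fell (25%, against 10.4% of all tested names) and 0 rose, with a median log2 fold change of -0.90. Many of these names were listed with identical counts. Taken once, they are 19 distinct measurements, of which 4 fell, with a median of -0.96. miR-467e-5p had 7.90, 7.19 and 3.91 CPM at 9 months and 11.3, 18.7 and 12.3 CPM at 1 month (log2 fold change -1.18 ± 0.28, adjusted p = 0.00585). The other lower names were 3p arms of miR-466 with few counts that may share reads: miR-466a-3p and miR-466e-3p were listed with identical counts, as were miR-466b-3p, miR-466c-3p and miR-466p-3p, and both sets differ in few counts. miR-466a-3p had 7.38, 8.48 and 5.42 CPM at 9 months and 14.8, 13.5 and 13.3 CPM at 1 month (log2 fold change -0.97 ± 0.28, adjusted p = 0.0174), and the remaining lower name, miR-466d-3p, a log2 fold change of -0.99 (adjusted p = 0.0184). The count was 1 without 9-month replicate 3, 1 with a filter at a mean of 10 CPM, and 13 with library totals alone.

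The same span of age was then taken in APP/PS1 mice, whose 6 libraries are not among those of the WT comparison. There 63 names changed (14.5%), 31 higher (7.16%) and 32 lower (7.39%). The count was 31 without APP/PS1 9-month replicate 1, 36 without 9-month replicate 2, 27 without 1-month replicate 2 and 39 without 1-month replicate 3. Of the 76 names called in WT, 75 had the same sign in APP/PS1, against 68.4% of all tested names, and 32 were also called, which is 42.1% of the WT calls and 50.8% of the APP/PS1 calls. miR-29b-3p had a log2 fold change of 1.12 (adjusted p = 1.25e-07) in APP/PS1, miR-412-5p of -2.10 (adjusted p = 1.25e-07), miR-409-5p of -0.83 (adjusted p = 3.63e-06) and miR-338-3p of 1.62 (adjusted p = 0.000828). miR-540-5p was the name with the other sign, at -0.09 (adjusted p = 0.711). The change was smaller in APP/PS1 for 68 of the 76 names, which were picked on their WT values, and for 257 of all 433. In the lists, APP/PS1 mice had 1 lower name of the miR-17-92 list (median -0.20) against 6 in WT (-0.69), and 12 lower names of the Dlk1-Dio3 locus (-0.16) against 29 in WT (-0.29). Of the neuron-enriched list 0 were higher in APP/PS1 (median 0.05) against 3 in WT (0.23), and of the miR-29 family 3 were higher in APP/PS1 (0.60) against 4 in WT (0.99). Other lists had more calls in APP/PS1 than in WT. Of the erythrocyte names, some with identical counts, 5 were lower in APP/PS1 (median -0.57) against 0 in WT (-0.25). Of the immune and microglial list 4 were higher and 1 lower in APP/PS1 (median 0.43), against 1 and 0 in WT (-0.06). Of the miR-297, miR-466, miR-467 and miR-669 names 12 were lower in APP/PS1 (median -0.81) against 7 in WT (-0.90). Whether the lists differed between the genotypes was not tested.

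Whether the change from 1 to 9 months differed between the genotypes was tested for every name as an interaction in edgeR. The number passing was 0 (0.0%), with 48 names (11.1%) at an unadjusted p under 0.05. In other fits 6 passed in DESeq2, 16 when rare names were not filtered out, 1 with a replicate block and 6 without APP/PS1 9-month replicate 3. Differences are WT minus APP/PS1. The smallest p-values belonged to miR-144-5p of erythrocytes, miR-142a-3p of immune cells and miR-496a-3p of the Dlk1-Dio3 locus. For miR-144-5p the log2 fold change was -0.76 (adjusted p = 0.0864) in WT and -2.63 (adjusted p = 1.97e-05) in APP/PS1, a difference of 1.86 (SE 0.45, unadjusted p = 0.000525, adjusted p = 0.157). For miR-142a-3p it was -0.44 (adjusted p = 0.193) in WT and 0.77 (adjusted p = 0.0222) in APP/PS1, a difference of -1.21 (SE 0.31, unadjusted p = 0.000876, adjusted p = 0.157). For miR-496a-3p it was -0.84 (adjusted p = 1.5e-05) in WT and -0.26 (adjusted p = 0.144) in APP/PS1, a difference of -0.58 (SE 0.16, unadjusted p = 0.00161, adjusted p = 0.157). Among the miR-29 arms the differences were 0.29 (SE 0.14, unadjusted p = 0.053, adjusted p = 0.458) for miR-29b-3p and 0.39 (SE 0.12, unadjusted p = 0.00471, adjusted p = 0.157) for miR-29c-3p. In the edgeR test with all libraries, the change with age was not shown to differ between the genotypes for any single name.

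**Figure D5:**
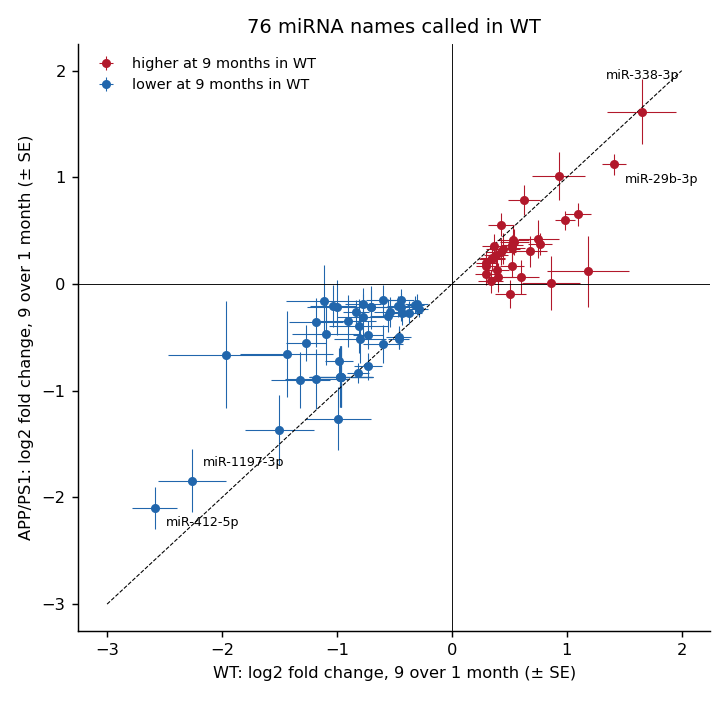
Log2 fold change of 9 over 1 month, with its SE, in WT (x axis) and in APP/PS1 mice (y axis) for the 76 names called in WT, which were picked on the WT values. The dashed line marks equal change, 75 of the 76 points have the same sign on both axes, and 32 were also called in APP/PS1.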

How the data were processed

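The authors deposited unnormalised counts for mature miRNAs as 1 table of 1927 names by 24 libraries, which were matched to samples by their descriptions. Every value is whole, 0 libraries are identical and 802 names had 0 counts everywhere. Per the labels' protocols, RNA was extracted with Trizol from flash-frozen brain, and single-end reads of TruSeq small RNA libraries came from a HiSeq 2500. Adapters were removed with cutadapt 1.14, keeping 17 to 35 bases, low-quality reads (under 20) with Trimmomatic 0.36, and other RNA families and repeats with BLAST 2.6.0. Per the labels, miRBase 21.0 was the source of known names, while miRDeep2 2.0.0.8 gave the predictions. Neither the counting tool nor the build is given in the sources used here, and edgeR is named with neither version nor model. mRNA data were not analysed here.

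With filterByExpr of edgeR (count of 10 and total of 15 as minimum) 433 names were tested, and the rest made up 0.011% to 0.0159% of a library. Counts were scaled by TMM (factors 0.884 to 1.14; 0.940 to 1.01 in WT 9-month and 1.09 to 1.14 in WT 1-month libraries) and fitted by quasi-likelihood in edgeR 4.0.16 (R 4.3.3), with 1 mean for each of 8 groups, 16 residual and 4.64 prior degrees of freedom. Benjamini-Hochberg adjustment of p-values ran over the 433 names within each comparison, and these reflect the variation among mice. SE was taken as the absolute log2 fold change over the root of the F statistic. Alternatives were RLE factors, library totals alone, no filter, a filter at a mean of 10 CPM, DESeq2 1.42.0, a replicate block, fits without the 6-month libraries or on the compared groups alone, merging of identical names, and leaving out each library. The fit was tested on simulated counts.

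miRNAs were named by rule: the 15 higher and 15 lower with the smallest p, up to 4 passing members of each of 26 lists, the miR-29 family, the 5 most abundant, the 4 most abundant passing in each direction, and the 3 with the smallest p for the difference between genotypes. Others were named after their values were seen: miR-338-5p, miR-219a-5p, miR-132-3p, miR-1a-3p, miR-206-3p, miR-499-5p, miR-155-5p, miR-146a-5p, miR-142a-5p, miR-223-3p, miR-34a-5p, miR-22-3p, miR-92a-3p, miR-20a-3p, miR-20a-5p, miR-17-3p, miR-409-3p, miR-543-3p, miR-540-5p, miR-1193-5p, miR-466c-3p, miR-466p-3p, miR-466d-3p, miR-434-5p, miR-434-3p, miR-136-3p and those of the closing section. The members and lists were chosen with earlier results of these data known. RefSeq gave a mature sequence for 358 of the 433 names, and gene overlaps come from GENCODE M21, both on GRCm38.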

Additional observations from a re-analysis of the deposited data

How the results depend on the processing

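For WT 9 against 1 month the counts of 31 higher and 45 lower stayed within 1.5 times with RLE factors, DESeq2, a replicate block, merging of identical names, the compared groups alone and without the 6-month libraries. The higher count became 20 without a filter on low counts, 18 with the stricter filter and 11 with library totals alone, where the lower count became 79. Leaving out 1 of the 6 libraries gave between 14 and 28 higher, 36 and 42 lower, and 52 and 65 in all. In the other alternatives 76 of the 76 calls were shared with RLE factors, 75 with DESeq2, 72 with the block, 71 in the compared groups alone and 51 without a filter. For APP/PS1 the higher count became 20 with the stricter filter and 19 in the compared groups alone, and leaving out a library gave between 13 and 30 higher, 14 and 31 lower, and 27 and 56 in all. For the difference between genotypes the 0 calls became 16 without a filter (3 higher and 13 lower), 6 in DESeq2 (2 higher and 4 lower) and 1 with the replicate block (1 higher). Leaving out 1 of 12 libraries gave between 0 and 1 higher, 0 and 5 lower, and 0 and 6 in all, the last without APP/PS1 9-month replicate 3. Of single names, miR-9-5p turned direction with library totals alone (-0.14), with the stricter filter (-0.028) and in 3 fits that left out a library (range over 6 fits -0.048 to 0.18), and miR-125b-5p with library totals alone (-0.072).

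The labels give replicate numbers but do not say what they stand for. The deviations of same-numbered WT libraries of 9 and 1 month correlated by 0.15, 0.17 and 0.04, and 2 of 3 correlated best with their own number. With the replicate block 29 names were higher and 46 lower in WT, and 53 were called in APP/PS1. Names with few counts, such as miR-338-3p and miR-18a-5p, are limited by depth, and 3 mice per group limit the rest.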

Other observations

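Of 123 hairpins with both arms tested in WT cortex, 33 had at least 1 arm called and 12 had both, each of the 12 with both arms in one direction. By sign alone, called or not, 88 of the 123 had both arms on one side of 0, and so did 77 of the 112 left without pairs that share identical counts with another name. Among the 21 with a single called arm, the other arm had the same sign in 16. The exceptions included miR-540 and miR-27a. In miR-540 the 5p arm rose and the 3p arm had a log2 fold change of -0.36 (adjusted p = 0.15). In miR-27a the 3p arm was called higher (log2 fold change 0.45 ± 0.15, adjusted p = 0.0364) and the rare 5p arm had -0.60 (adjusted p = 0.359). The call of miR-27a-3p did not survive any omission of a library (highest adjusted p = 0.142, without 1-month replicate 2). It was also lost with library totals alone (adjusted p = 0.207), without a filter (adjusted p = 0.0975) and with the stricter filter (adjusted p = 0.0764). Both arms of miR-140, made within the gene Wwp2, rose, miR-140-3p with 1661 ± 362 CPM at 9 months and 1235 ± 88.3 CPM at 1 month (log2 fold change 0.43 ± 0.13, adjusted p = 0.021) and miR-140-5p with a log2 fold change of 0.34 (adjusted p = 0.0319). Both calls were lost with library totals alone (adjusted p = 0.256 for miR-140-3p and 0.451 for miR-140-5p). Both were also lost without a filter, with the stricter filter and in the compared groups alone. When libraries were omitted in turn, miR-140-3p passed in 3 of 6 fits (highest adjusted p = 0.308, without 9-month replicate 3). miR-140-5p passed in 1 of 6 (highest adjusted p = 0.232, without 1-month replicate 2).

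Of the 76 called names 13 were in no list. Among them were miR-384-3p of chromosome X, at 9.48, 4.61 and 5.87 CPM at 9 months and 3.47, 2.50 and 2.70 CPM at 1 month (log2 fold change 1.18 ± 0.36, adjusted p = 0.0222), and miR-320-3p (log2 fold change 0.37 ± 0.11, adjusted p = 0.0207), which were higher at 9 months, and miR-3078-5p (log2 fold change -0.90 ± 0.24, adjusted p = 0.0133) and a predicted miRNA (log2 fold change -1.11, adjusted p = 0.021), which were lower. Of these calls, only that of miR-3078-5p survived every omission of a library. miR-320-3p passed in 1 of 6 omissions (highest adjusted p = 0.179, without 9-month replicate 2) and miR-384-3p in 2 of 6 (0.14, without 9-month replicate 1). Both were lost with library totals alone (adjusted p = 0.449 for miR-320-3p and 0.067 for miR-384-3p). The predicted miRNA passed in 2 of 6 omissions (highest adjusted p = 0.0995, without 1-month replicate 2). It was most like miR-666-5p of the Dlk1-Dio3 locus over the 24 libraries (Pearson's r = 0.778 on log2 CPM), as a description, since all libraries share its counting. By seed, miR-148a-3p and miR-148b-3p share that of miR-152-3p, which rose, and had log2 fold changes of -0.21 (adjusted p = 0.385) for miR-148a-3p and -0.12 (adjusted p = 0.334) for miR-148b-3p.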
